A study of Homo sapiens with 12 samples.

Results

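The genes described here encode the parts of epithelial cell-cell junctions and a few markers and regulators of epithelial identity. They were taken by name from the rows of a merged gene count table: 38 genes out of 40605 rows of that table. For reading, they were put into 6 classes: adherens junction genes, claudins, other tight junction genes, polarity genes, desmosome genes and epithelial identity genes. RNA was measured by 3' tag sequencing (QuantSeq FWD V2), a method that reads a short stretch at the polyadenylated end of each mRNA, in 12 libraries of A549, an established human lung adenocarcinoma cell line.

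The cells carried a tetracycline-inducible DYRK1B transgene, a dual-specificity protein kinase, either as the wild type (WT) or as Y273F, in which the activation-loop tyrosine is replaced by phenylalanine. Libraries 1, 2 and 3 are labelled WT control and libraries 4, 5 and 6 WT doxycycline. Libraries 7, 8 and 9 are labelled Y273F control and libraries 10, 11 and 12 Y273F doxycycline. Doxycycline was given at 2 µg/ml over a culture of 7 days, and each group has 3 libraries from cell populations that, per the series text, were independent and handled in parallel. All lines carry a transgene, so doxycycline itself and DYRK1B cannot be told apart. The sources used here do not say whether each line is 1 clone or which 3' end the transgene carries.

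Epithelial cells hold together through 3 kinds of junction along their lateral sides. Adherens junctions hold nectins and join E-cadherin to actin through catenins. Tight junctions seal the space between cells with claudins and MARVEL proteins on a ZO scaffold. Desmosomes join desmosomal cadherins to keratin through plakoglobin, plakophilins and desmoplakin. Loss of E-cadherin and EPCAM, with gain of vimentin and N-cadherin, is the textbook description of epithelial-mesenchymal transition, and A549 is known as a line that expresses both epithelial and mesenchymal genes.

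The libraries held 2815673 to 22319921 assigned counts (median 7667958), so that 3 counts, the limit that a count of 0 allows, correspond to 0.134 to 1.07 CPM (counts per the library's total, times a constant). Floors use the library total alone, whereas all levels below are CPM with the total adjusted by the TMM factor of the library. Floors cover counting error only. The intervals given below for fold changes also include the spread between the libraries of a group. DYRK1B itself was read at 28.1, 12.4 and 19.7 CPM in libraries 4, 8 and 12 and at 2.61 to 7.74 CPM in the other 9. Library 8 is labelled Y273F control. Libraries 5, 10 and 11, labelled doxycycline, lie within the 2.61 to 5.71 CPM of the other libraries labelled control. Library 6, also labelled doxycycline, was at 7.74 CPM, above that range and below library 8. The induced gene therefore does not follow the titles, although tags that miss the transgene cannot be told apart from absent induction. Groups are accordingly called by their labels. Libraries 2, 6 and 10 (by title WT control 2, then WT doxycycline 3, then Y273F doxycycline 1) stand apart from the other 9, lying wholly above them for 18.5% of the genes tested and wholly below for 15.6%. Their depth, 4529085, 7265444 and 2815673 counts, lies in the lower part of the range.

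Because libraries resemble each other across the titles' groups, values are also given by library number, in 4 sets of 3: 1, 5 and 9; 2, 6 and 10; 3, 7 and 11; and 4, 8 and 12. These sets were chosen with earlier results of these data known. They carry no condition here, each holds libraries labelled control and libraries labelled doxycycline, and no test was run on them. Values below are CPM in the order of these numbers unless said otherwise. A 3' tag count is not scaled by transcript length, so levels are compared between libraries and not between genes.

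Promoters are shown for 4 members whose levels by library number went in opposite ways: CLDN3 and CLDN4, neighbours on chromosome 7 with 60725 bases between them, NECTIN4, which was highest in libraries 2, 6 and 10, and TJP3, which was lowest there. Each run is a RefSeq window on GRCh38.p14 from 250 bases before to 50 bases after an annotated start, printed 5' to 3' on the gene's strand. Capitals mark the letters CACCTG or, for the other strand, CAGGTG, an E-box of the kind that SNAI and ZEB repressors are known to bind. The windows are chr7:73770221-73770520 (minus strand) for CLDN3, chr7:73830746-73831045 (plus strand) for CLDN4, chr1:161089509-161089808 (minus strand) for NECTIN4 and chr19:3721487-3721786 (plus strand), 1 of the windows listed for TJP3.
CLDN3: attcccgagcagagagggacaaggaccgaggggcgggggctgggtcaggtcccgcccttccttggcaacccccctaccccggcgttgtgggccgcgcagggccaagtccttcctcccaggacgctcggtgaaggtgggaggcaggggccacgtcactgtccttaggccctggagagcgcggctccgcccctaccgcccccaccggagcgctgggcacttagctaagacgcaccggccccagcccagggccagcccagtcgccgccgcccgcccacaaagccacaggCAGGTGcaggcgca
CLDN4: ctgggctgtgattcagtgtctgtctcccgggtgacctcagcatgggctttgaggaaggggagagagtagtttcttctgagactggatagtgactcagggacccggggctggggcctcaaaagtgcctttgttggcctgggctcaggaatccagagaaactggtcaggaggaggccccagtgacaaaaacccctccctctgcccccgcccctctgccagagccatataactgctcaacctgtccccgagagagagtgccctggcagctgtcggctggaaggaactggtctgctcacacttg
NECTIN4: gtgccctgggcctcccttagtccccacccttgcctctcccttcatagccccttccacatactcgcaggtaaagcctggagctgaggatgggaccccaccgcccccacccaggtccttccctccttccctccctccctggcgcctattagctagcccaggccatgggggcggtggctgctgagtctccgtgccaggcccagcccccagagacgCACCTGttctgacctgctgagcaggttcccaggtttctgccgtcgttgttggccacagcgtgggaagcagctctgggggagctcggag
TJP3: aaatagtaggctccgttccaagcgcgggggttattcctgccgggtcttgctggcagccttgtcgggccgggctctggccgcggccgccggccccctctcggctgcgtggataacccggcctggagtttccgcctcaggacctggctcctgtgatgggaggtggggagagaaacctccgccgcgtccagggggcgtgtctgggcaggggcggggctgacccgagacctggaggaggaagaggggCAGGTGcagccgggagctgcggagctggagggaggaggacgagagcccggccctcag
The letters begin 36 bases after the start in CLDN3, 38 bases before it in NECTIN4 and 7 bases before it in this TJP3 window. The CLDN4 window does not hold them, and neither does the other listed TJP3 window, chr19:3708134-3708433. Of the 38 members, 24 had windows in the table, 37 windows in all, and 12 of these windows (32.4%), in 11 members, held the letters. CDH1 and EPCAM were among the members without a window, so their promoters were not searched. Of all 35116 windows of the same length, 20.6% held them. Windows with the letters belonged both to members that were high and to members that were low in libraries 2, 6 and 10, and a match in these letters is a description and not a binding site.

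Of the 38 members, 35 passed the filter on low counts and were tested among 13838 genes. The other 3 were CDH3, ESRP2 and GRHL2. CDH3, which encodes P-cadherin, was read at 2.68 and 0.968 CPM in libraries 2 and 6 and at no more than 0.643 CPM in the others. ESRP2, an epithelial splicing regulator, and GRHL2, an epithelial transcription factor, stayed at or under 3 counts in every library, so that their levels were not detectable at this depth. Of the 35, NECTIN4 would not have passed without libraries 2, 6 and 10, nor ESRP1 without libraries 1, 5 and 9.

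**Figure D1:**
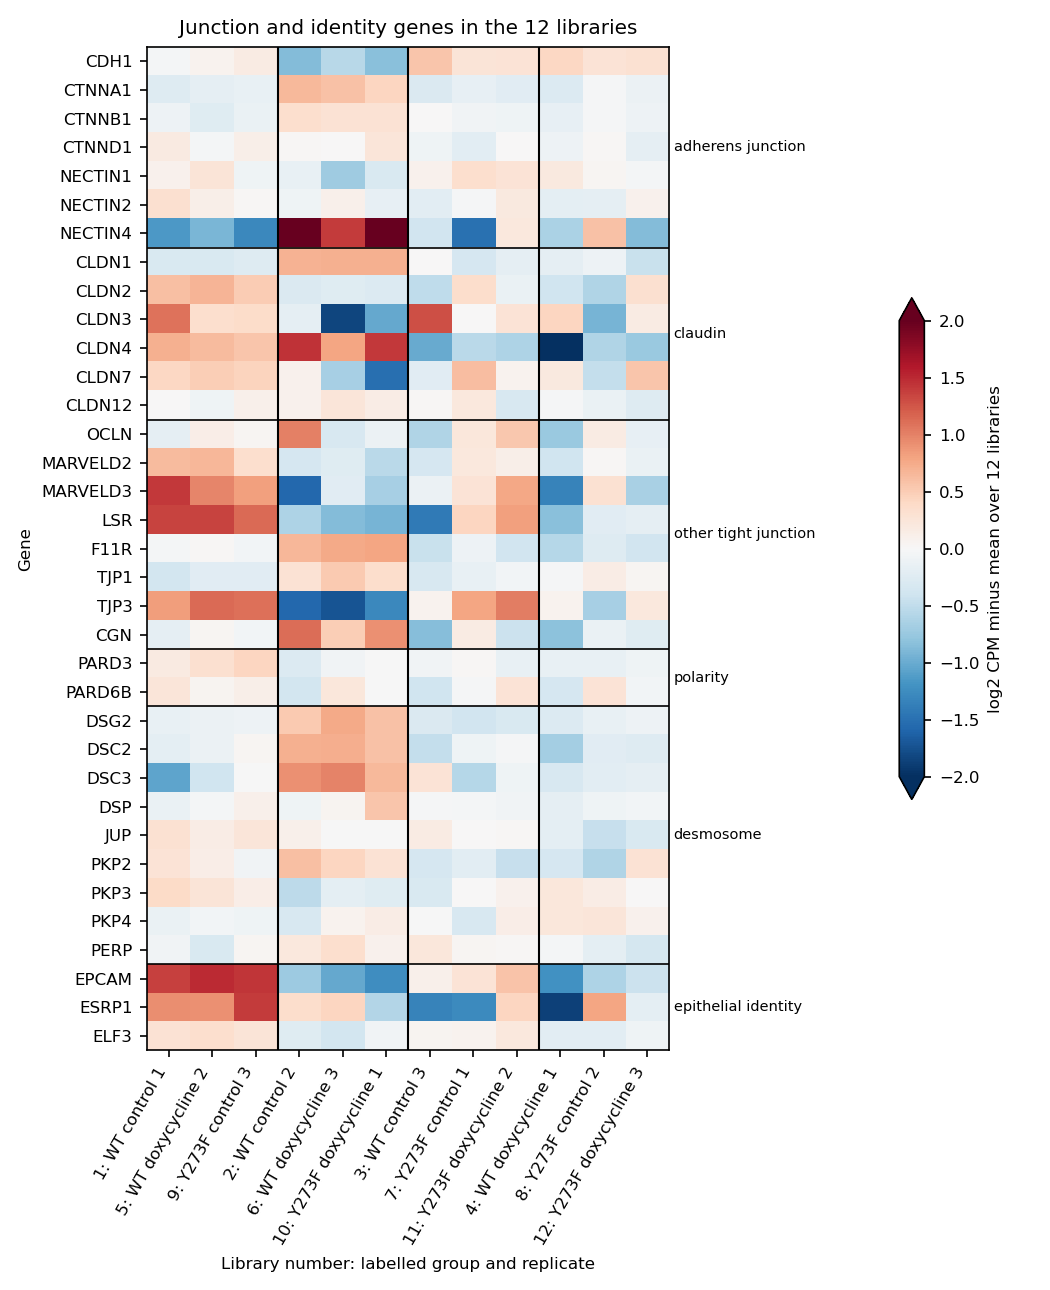
Colours show each gene's log2 CPM after subtraction of its average across libraries, for the 35 tested members (rows, by class), with libraries (columns) placed by number set and named by their labels, and values beyond 2 in either direction drawn at the end of the scale. The columns of libraries 1, 5 and 9 resemble each other and differ from those of 2, 6 and 10, although the titles put these libraries in different groups.

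By the titles, the first question is whether 7 days of induction in the WT line moved junction and identity genes. CDH1, which encodes E-cadherin, averaged 45.5 ± 14.6 CPM (SD, n = 3) in the libraries labelled WT doxycycline and 44.5 ± 20.7 CPM in those labelled WT control, a log2 fold change of 0.024 (SE 0.37, 95% interval -0.78 to 0.83). EPCAM, an epithelial adhesion and signalling protein, averaged 14.01 ± 15.5 and 16.0 ± 11.8 CPM, a log2 fold change of -0.20 (SE 0.80, 95% interval -1.94 to 1.55). The tight junction strand gene CLDN1 averaged 56.2 ± 23.6 and 58.1 ± 21.7 CPM, a log2 fold change of -0.043 (SE 0.35, 95% interval -0.82 to 0.73). In each of these the SD was far larger than the difference of the means.

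In the WT line, 0 of 35 members passed edgeR's quasi-likelihood test at a Benjamini-Hochberg adjusted p under 0.05, against 0% of all genes, and 0 had an unadjusted p under 0.05, against 134 of the 13838 genes. The lowest adjusted p among the members was 0.9997. At the same unadjusted level DESeq2 had 116 genes and limma-voom 158, and both called 0. The log2 fold change was above 0 for 17 of the 35 members, with a median of -0.008 beside -0.002 over all genes tested. Medians by class were -0.032 for the 7 adherens junction genes and for the 6 claudins, 0.025 for the 8 other tight junction genes, 0.11 for the 2 polarity genes, 0.018 for the 9 desmosome genes and -0.098 for the 3 identity genes. The largest difference was that of CLDN3, a barrier-forming claudin named after its values were seen, at -0.96 (SE 0.59, 95% interval -2.26 to 0.35). For no member did the 3 libraries of one label lie wholly above or below those of the other (0 of 35), whereas the groups did not overlap for 3.27% of all genes.

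In the Y273F line the comparison of the libraries labelled doxycycline with those labelled control again gave 0 of 35 members and 0% of all genes called by edgeR. None of the members had an unadjusted p under 0.05, against 225 of all genes by edgeR, 232 by DESeq2 and 223 by limma-voom, neither of which called a gene. CDH1 averaged 44.8 ± 17.2 CPM under the doxycycline label and 52.5 ± 2.32 CPM (SD, n = 3) under the control label, a log2 fold change of -0.21 (SE 0.37, 95% interval -1.02 to 0.60). EPCAM averaged 9.86 ± 6.25 and 17.1 ± 12.1 CPM, a log2 fold change of -0.82 (SE 0.82, 95% interval -2.61 to 0.98). NECTIN4, a nectin of adherens junctions known as a drug target in carcinoma, had the widest interval, with a log2 fold change of 2.02 (SE 1.54, 95% interval -1.36 to 5.40). The lowest adjusted p among the members was 0.9924.

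Over the 35 members the median log2 fold change in the Y273F line was -0.02, beside 0.005 over all genes, and 16 members were above 0. Class medians were 0.10 for adherens junction genes, -0.10 for claudins, -0.19 for other tight junction genes, -0.12 for polarity genes, 0.17 for desmosome genes and -0.82 for identity genes. The 3 libraries of one label lay wholly to one side of the other for 0 of 35 members, against 10.9% of all genes.

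The WT effect minus the Y273F effect, the interaction of line and doxycycline, was tested in the same model, which called 0 of 35 members and 0% of all genes. An unadjusted p under 0.05 was seen for none of the members and for 165 of all genes by edgeR, with 144 by DESeq2 and 161 by limma-voom, neither of which called a gene. The difference was 0.23 (SE 0.52, 95% interval -0.91 to 1.37) for CDH1 and 0.62 (SE 1.14, 95% interval -1.88 to 3.12) for EPCAM on the log2 scale. The median over the members was -0.072, beside -0.011 over all genes, and 16 of 35 were above 0. The lowest adjusted p among the members was 0.9997.

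Between the lines without doxycycline, Y273F control against WT control, edgeR called 0 of 35 members and 0% of all genes. None of the members and 460 of all genes had an unadjusted p under 0.05, with 481 by DESeq2 and 478 by limma-voom, neither of which called a gene. CDH1 averaged 52.5 ± 2.32 CPM (SD, n = 3) in Y273F control and 44.5 ± 20.7 CPM in WT control, a log2 fold change of 0.23 (SE 0.37, 95% interval -0.58 to 1.03), and the wide SD of the latter includes library 2. The members' median was 0.007, beside -0.021 over all genes, with 18 of 35 above 0 and a lowest adjusted p of 0.9942. The groups did not overlap for 0 of 35 members, against 10.8% of all genes. Without libraries 2, 6 and 10, edgeR called 0 of 34 tested members in each of the 4 comparisons, with 305 genes at an unadjusted p under 0.05 in the WT line, 259 in the Y273F line, 249 for the difference and 813 between the lines. Of the members, CLDN3 had an unadjusted p under 0.05 in this setting in the WT line (log2 fold change -0.83, SE 0.34, edgeR adjusted p 0.9998) and between the lines (-1.21, SE 0.31, adjusted p 0.8167), and CLDN12 in the Y273F line (-0.38, SE 0.15, adjusted p 0.9993). With all 12 libraries, the share of all genes at an unadjusted p under 0.05 was itself below 0.05 in each of the 4 comparisons. A share of about 0.05 would be expected if no gene differed. A p that misses the threshold does not show that the levels were the same. In the WT line the intervals of members such as EPCAM and NECTIN4 include changes of more than 2-fold in either direction.

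**Figure D2:**
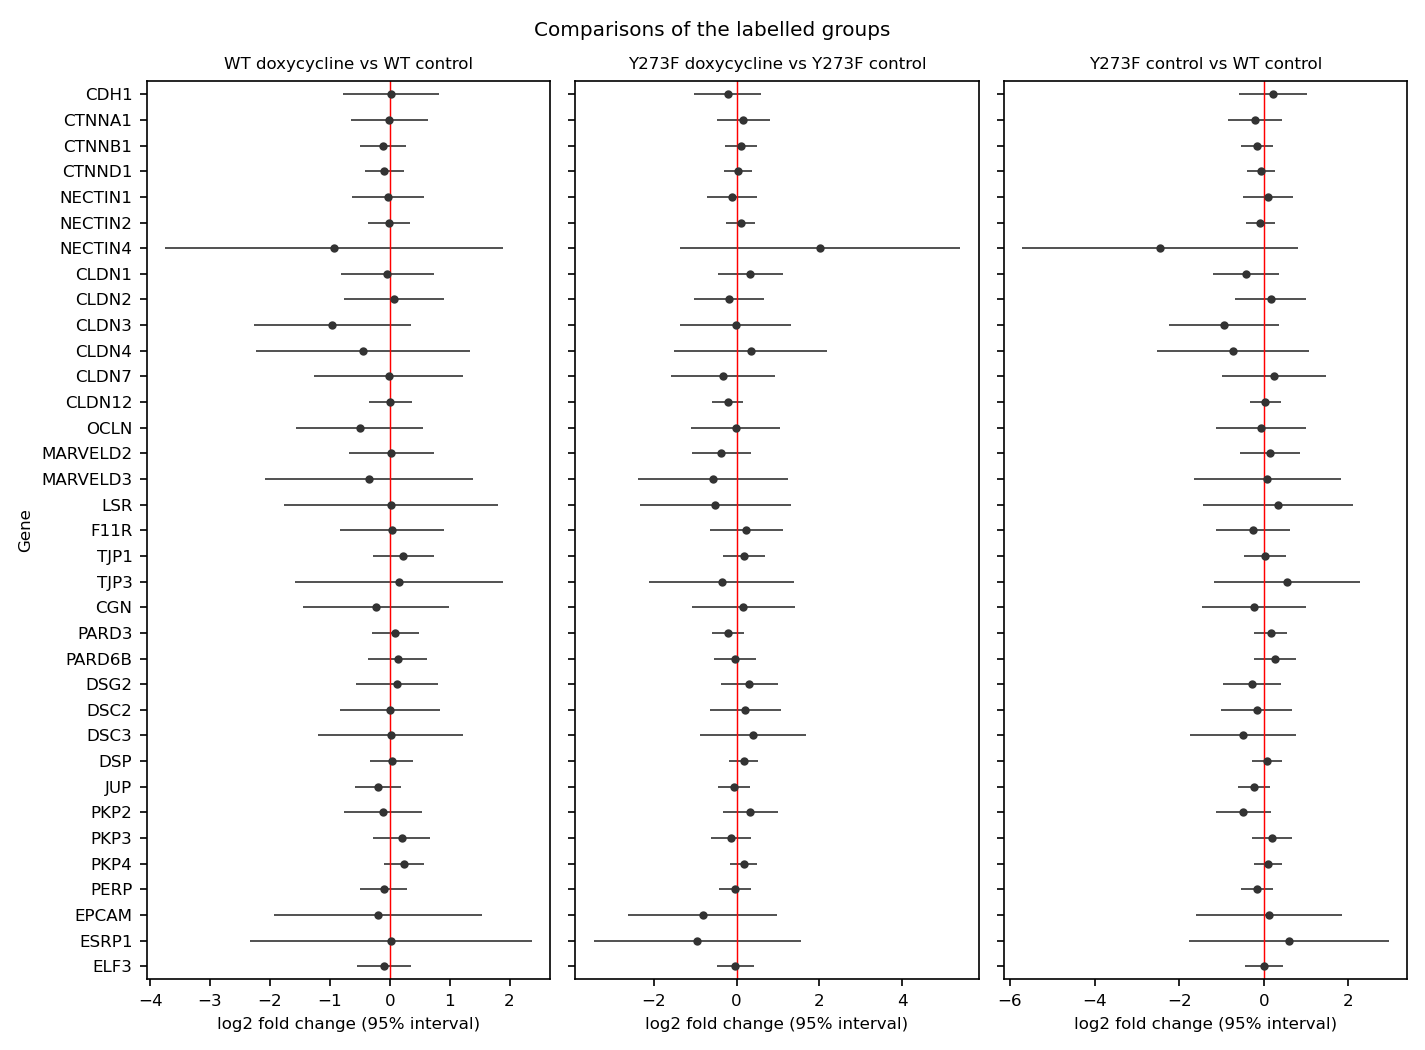
Each point is the log2 fold change of 1 tested member (rows) in 1 comparison of the labelled groups (panels), and each bar its 95% interval from the edgeR fit, with separate horizontal scales for the panels. All intervals include 0, and those of NECTIN4, ESRP1, EPCAM, LSR and TJP3 are among the widest.

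The spread inside the titles' groups was larger than that inside the number sets. Because the sets were chosen with earlier results of these data known, a smaller spread within them was favoured in advance. The values below are therefore a description and no evidence for the sets. The median SD of log2 CPM over the 35 members was 0.438 within the titles' groups and 0.189 within the number sets, and 33 of the 35 (94.3%) had the smaller SD within the number sets. OCLN and PARD6B were the exceptions. Over all 13838 genes these medians were 0.327 and 0.208, and 80.9% of the genes had the smaller SD within the number sets. CTNNB1 had an SD of 0.216 within the titles' groups and 0.061 within the number sets, DSG2 0.427 and 0.08, and EPCAM 1.15 and 0.271. For no gene of the list was a condition assigned from this, and whether titles and libraries were exchanged was not tested.

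Among adherens junction genes, E-cadherin was low in libraries 2, 6 and 10 and the catenins CTNNA1 and CTNNB1 were high there, whereas CTNND1 overlapped. CDH1 (ENSG00000039068, chr16:68737292-68835537, coordinates of RefSeq genes on GRCh38.p14) was read at 24.3, 30.3 and 25.0 CPM in libraries 2, 6 and 10. Its values were 43.4, 46.9 and 49.9 CPM in libraries 1, 5 and 9, 65.7, 53.2 and 54.1 CPM in 3, 7 and 11, and 59.4, 54.3 and 55.4 CPM in 4, 8 and 12. All 3 libraries of the first of these sets lay below the other 9, with a median 2.15-fold lower on the scale of log2 CPM with a prior count of 2, which understates folds of low genes. CTNNA1, the alpha-catenin that links the cadherin complex to actin, was read at 334, 318 and 287 CPM in libraries 2, 6 and 10. Elsewhere it was read at 176, 186 and 192 CPM in 1, 5 and 9, 173, 190.0 and 181 CPM in 3, 7 and 11, and 175, 209 and 196 CPM in 4, 8 and 12. Alpha-catenin was thus high in the same libraries in which E-cadherin was low, a 1.71-fold higher median with no overlap.

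CTNNB1, which encodes beta-catenin, the partner of E-cadherin and effector of Wnt signalling, was read at 267, 258 and 257 CPM in libraries 2, 6 and 10. In the other sets it was read at 197, 179 and 193 CPM (1, 5 and 9), 214, 202 and 199 CPM (3, 7 and 11) and 188, 209 and 197 CPM (4, 8 and 12), all below. CTNND1, the p120-catenin that keeps cadherins at the membrane, differed little, at 19.7 to 27.1 CPM over all 12 libraries. Part of the exons of CTNND1 on its strand (4.64% in GENCODE 29) is shared with other annotated genes, so some of its reads may be uncounted.

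The nectins, which start contacts beside cadherins, differed from each other. NECTIN4 (ENSG00000143217, chr1:161070998-161089558) was read at 5.80, 2.49 and 3.87 CPM in libraries 2, 6 and 10. Elsewhere its values were 0.224, 0.308 and 0.177 CPM in 1, 5 and 9, 0.553, 0.124 and 0.963 CPM in 3, 7 and 11, and 0.428, 1.31 and 0.321 CPM in 4, 8 and 12, values around the floor of 3 counts, so no fold is given. NECTIN1 went the other way, at 8.25, 5.53 and 7.39 CPM in libraries 2, 6 and 10. NECTIN1 had 9.74, 11.1 and 8.68 CPM in 1, 5 and 9, 9.74, 11.66 and 11.2 CPM in 3, 7 and 11, and 10.6, 9.49 and 8.89 CPM in 4, 8 and 12. The gap for NECTIN1 was only 0.071 on the log2 scale, the narrowest among the members that lay below. NECTIN2, at 71.3 to 102 CPM, overlapped between all sets.

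**Figure D3:**
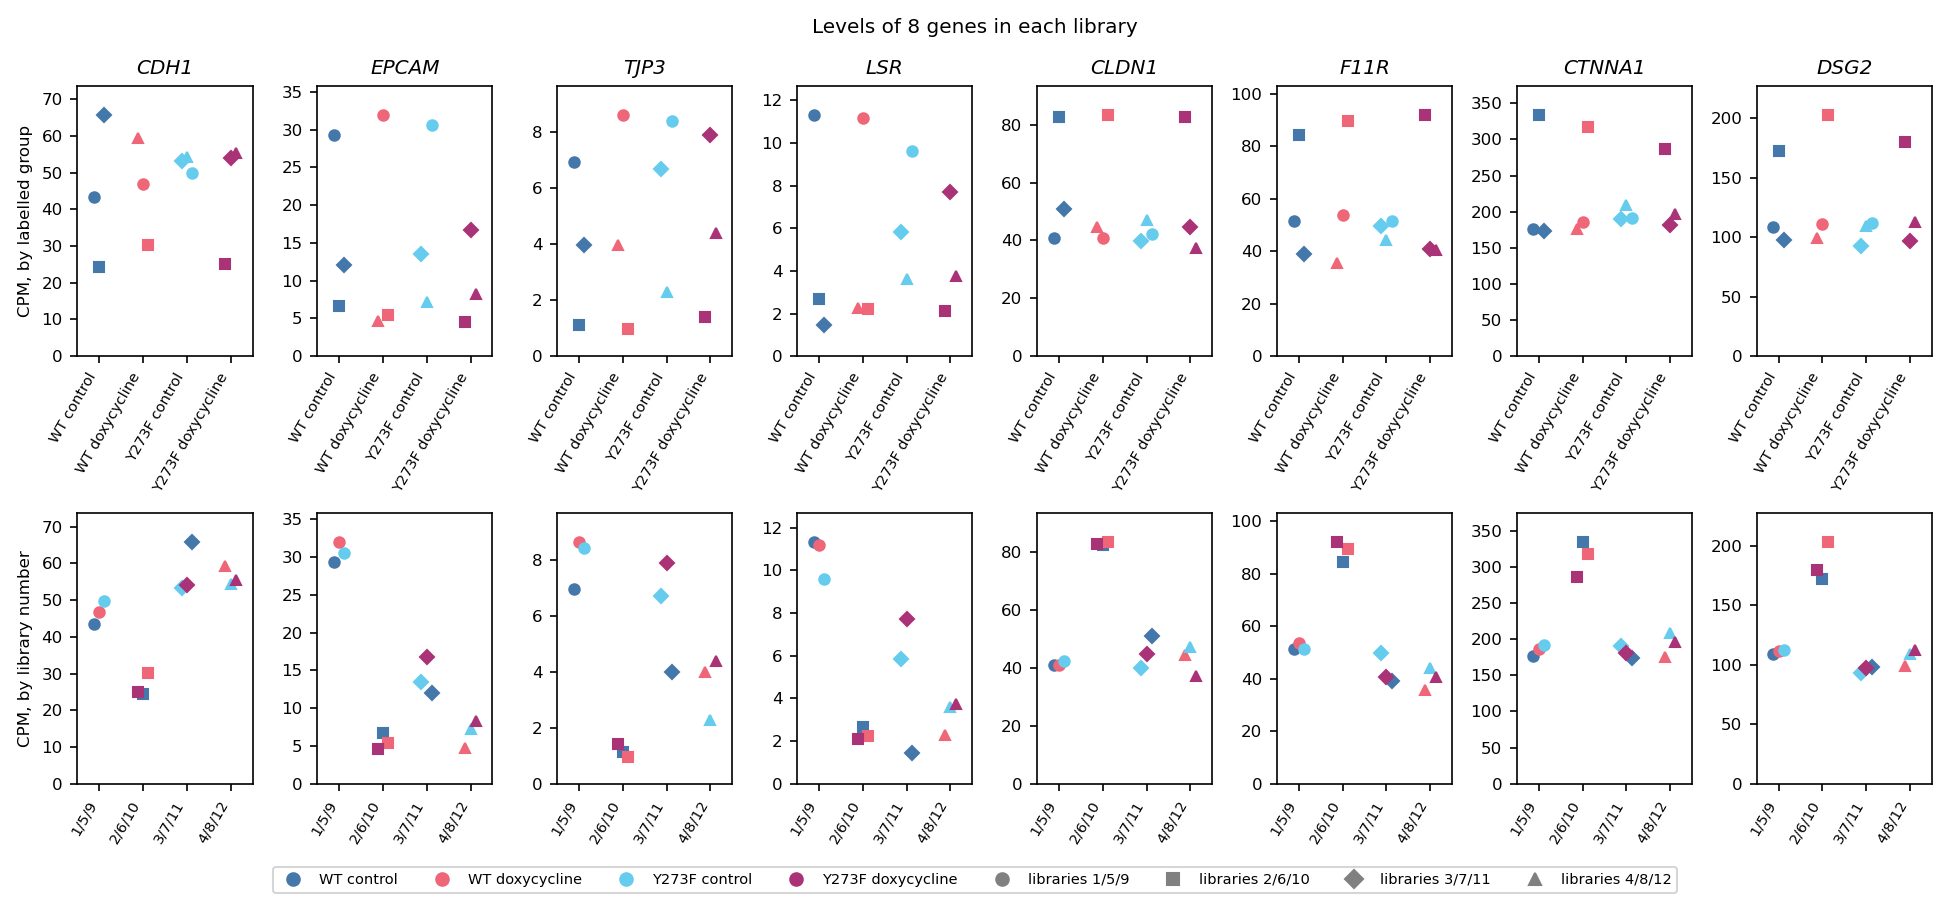
CPM of 8 members in each library, placed by labelled group (upper row) and by library number set (lower row), with colour for the label and marker shape for the number set, on axes that start at 0. In the upper row the groups compared overlap for each gene, whereas in the lower row libraries 2, 6 and 10 lie apart for CDH1, TJP3, CLDN1, F11R, CTNNA1 and DSG2, and libraries 1, 5 and 9 lie highest for EPCAM and LSR.

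The claudins, the strand proteins that set tight junction permeability, differed among themselves by library number. CLDN1 (ENSG00000163347, chr3:190305707-190322446), a barrier-forming claudin, was read at 82.5, 83.3 and 82.7 CPM in libraries 2, 6 and 10. Its values were 41.0, 40.9 and 42.3 CPM in 1, 5 and 9, 50.9, 40.0 and 44.7 CPM in 3, 7 and 11, and 44.5, 47.1 and 37.3 CPM in 4, 8 and 12. The 3 libraries of the first set lay above the other 9, with a median 1.95-fold higher. CLDN12, a claudin found in many tissues, was read at 21.1, 19.7 and 22.3 CPM in 1, 5 and 9 and at 22.1, 24.6 and 23.2 CPM in 2, 6 and 10. The remaining sets gave 21.2, 24.2 and 16.6 CPM in 3, 7 and 11 and 20.5, 19.0 and 17.4 CPM in 4, 8 and 12, so that the sets overlapped except that 2, 6 and 10 lay just above 4, 8 and 12. Of the exon bases of CLDN12, 16.3% are shared with other genes on its strand in GENCODE 29.

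The remaining claudins are named after their values were seen. CLDN2, a channel-forming claudin that passes cations, was highest in libraries 1, 5 and 9, at 24.9 to 27.9 CPM against 11.4 to 22.2 CPM in the other 9. CLDN3 (ENSG00000165215, chr7:73768997-73770270) was read at 4.01, 1.11 and 2.11 CPM in libraries 2, 6 and 10. Its levels were 9.96, 5.85 and 5.98 CPM in 1, 5 and 9, 11.5, 4.59 and 5.59 CPM in 3, 7 and 11, and 6.27, 2.29 and 5.14 CPM in 4, 8 and 12. Libraries 1, 5 and 9 and libraries 3, 7 and 11 thus lay above 2, 6 and 10, and library 8 alone overlapped with them. Its neighbour CLDN4 (ENSG00000189143, chr7:73830996-73832690) was read at 16.9, 10.6 and 16.6 CPM in libraries 2, 6 and 10 and at 10.1, 9.55 and 9.03 CPM in 1, 5 and 9. In 3, 7 and 11 it was read at 2.88, 4.09 and 3.85 CPM and in 4, 8 and 12 at 1.28, 3.93 and 3.54 CPM. The neighbouring genes, whose promoters are printed above, thus had their lowest and highest medians in the same 3 libraries. CLDN7, a claudin of the basolateral membrane, was low throughout, at 0.352 to 2.36 CPM.

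Among the other tight junction genes, F11R, which encodes the junctional adhesion molecule JAM-A, was read at 84.3, 89.6 and 91.9 CPM in libraries 2, 6 and 10. The other libraries gave 51.4, 53.7 and 51.3 CPM in 1, 5 and 9, 39.0, 49.6 and 40.6 CPM in 3, 7 and 11, and 35.6, 44.2 and 40.5 CPM in 4, 8 and 12, a 2.02-fold difference of medians with no overlap. Of the bases near the 3' end of F11R, 65.7% are shared on the same strand with the annotated gene AL591806.3, so its counts may miss many reads in all libraries. TJP1, which encodes the scaffold ZO-1, was read at 109, 128 and 113 CPM in 2, 6 and 10. In the other libraries ZO-1 was lower, at 68.9, 75.3 and 75.8 CPM in 1, 5 and 9, 70.7, 79.7 and 85.2 CPM in 3, 7 and 11, and 87.2, 97.8 and 91.0 CPM in 4, 8 and 12. TJP3, which encodes the related scaffold ZO-3, went the opposite way, at 1.11, 0.968 and 1.41 CPM in 2, 6 and 10 and 6.94, 8.62 and 8.41 CPM in 1, 5 and 9. TJP3 was at 3.98, 6.70 and 7.90 CPM in 3, 7 and 11 and at 3.99, 2.29 and 4.39 CPM in 4, 8 and 12. With counts of both strands TJP3 no longer lay wholly below.

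LSR, an angulin that marks tricellular contacts, named after its values were seen, was read at 9.61 to 11.3 CPM in libraries 1, 5 and 9 and at 1.44 to 7.71 CPM in the other 9. MARVELD2, or tricellulin, which LSR recruits, was read at 37.2 to 46.5 CPM against 20.1 to 34.1 CPM, and its relative MARVELD3 at 3.41 to 5.26 against 0.446 to 3.27 CPM. The other angulin genes, ILDR1 and ILDR2, which are not members, were read at no more than 1 count in any library. OCLN, the third MARVEL protein, was low, at 1.28 to 4.91 CPM, and overlapped between all sets. OCLN lies in a duplicated part of chromosome 5, so reads that match a copy may be uncounted. CGN, or cingulin, which ties ZO scaffolds to myosin, was read at 5.67 to 8.92 CPM in libraries 2, 6 and 10 and at 2.10 to 4.47 CPM elsewhere.

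The polarity genes PARD3 and PARD6B encode parts of the PAR complex, which sets the apical side. PARD3 was read at 348, 386 and 414 CPM in libraries 1, 5 and 9 and at 256, 295 and 308 CPM in 2, 6 and 10. Libraries 3, 7 and 11 gave 292, 314 and 278 CPM and 4, 8 and 12 gave 278, 278 and 290.3 CPM, so that the first set lay above the other 9, with a median 1.33-fold higher. PARD6B was read at 9.81, 14.9 and 12.7 CPM in 2, 6 and 10, 15.1, 13.1 and 13.8 CPM in 1, 5 and 9, 9.63, 12.5 and 15.4 CPM in 3, 7 and 11, and 9.98, 15.4 and 12.2 CPM in 4, 8 and 12, with overlap throughout.

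The 3 desmosomal cadherins among the members were high in libraries 2, 6 and 10. DSG2, the desmoglein of simple epithelia, was read at 172, 203 and 179.5 CPM there and at 109, 111 and 112 CPM in 1, 5 and 9. It was read at 97.8, 92.6 and 97.1 CPM in 3, 7 and 11 and at 99.2, 109 and 112 CPM in 4, 8 and 12, which makes the median 1.65-fold higher with no overlap. DSC2, its desmocollin partner, was read at 27.2, 27.5 and 25.0 CPM in 2, 6 and 10. The other libraries were lower for DSC2, at 14.4, 15.3 and 17.0 CPM in 1, 5 and 9, 11.8, 15.5 and 16.4 CPM in 3, 7 and 11, and 10.3, 14.1 and 13.8 CPM in 4, 8 and 12. DSC3, a desmocollin better known from stratified epithelia and 16097 bases from DSC2, was read at 4.93 to 6.36 CPM in 2, 6 and 10 against 1.34 to 3.76 CPM elsewhere.

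Of the plaque proteins that link these cadherins to keratin, only PKP2 lay above in libraries 2, 6 and 10, and JUP, DSP, PKP3 and PKP4 did not. JUP, or plakoglobin, was read at 206, 185 and 198 CPM in libraries 1, 5 and 9, 180.0, 166 and 166 CPM in 2, 6 and 10, 187, 168 and 169.5 CPM in 3, 7 and 11, and 146, 121 and 135 CPM in 4, 8 and 12. Its lowest values were all in the last set. DSP, or desmoplakin, the plaque protein that binds keratin, was read at 74.8 to 124 CPM, with library 10 highest and overlap between all sets. The plakophilin PKP2 was read at 19.0 to 23.6 CPM in 2, 6 and 10 and at 10.1 to 19.0 CPM elsewhere, with a median 1.56-fold higher but a gap of only 0.004 on the log2 scale. PKP3 was read at 24.3 to 45.4 CPM and PKP4 at 44.3 to 65.8 CPM, and for both libraries 2, 6 and 10 overlapped with the other 9. Against single sets, PKP3 in 2, 6 and 10 lay below 1, 5 and 9, with a median 1.41-fold lower. It also lay below 4, 8 and 12 there, 1.3-fold lower. JUP in 2, 6 and 10 lay below 1, 5 and 9 by a log2 gap of 0.036 and above 4, 8 and 12 by 0.18. PERP, a membrane protein of desmosomes and target of p53, was read at 208, 177 and 223 CPM in 1, 5 and 9, 251, 274 and 231 CPM in 2, 6 and 10, 254, 224 and 222 CPM in 3, 7 and 11, and 212, 189 and 171 CPM in 4, 8 and 12. For PERP, libraries 2, 6 and 10 lay above 1, 5 and 9 and above 4, 8 and 12, with library 3 inside their range, and 4, 8 and 12 lay below 3, 7 and 11.

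Among identity genes, EPCAM (ENSG00000119888, chr2:47369311-47387020) gave the widest gap for libraries 1, 5 and 9. It was read at 29.3, 31.9 and 30.6 CPM in these libraries, at 6.69, 5.39 and 4.58 CPM in 2, 6 and 10, at 12.1, 13.5 and 16.8 CPM in 3, 7 and 11, and at 4.70, 7.20 and 8.25 CPM in 4, 8 and 12. The median of the first set was 4.14-fold that of the other 9 and 5.46-fold that of libraries 2, 6 and 10, and libraries 3, 7 and 11 also lay above 4, 8 and 12, with a median 1.85-fold higher. ELF3, an epithelial ETS transcription factor, was read at 268, 277 and 263 CPM in 1, 5 and 9 and at 186, 170.1 and 210.2 CPM in 2, 6 and 10. It was read at 228, 232 and 256 CPM in 3, 7 and 11 and at 190.3, 190.4 and 208 CPM in 4, 8 and 12. For ELF3, libraries 1, 5 and 9 were again highest but closer to the rest. Of the exon bases of ELF3, 9.23% are shared with another gene on its strand in GENCODE 29. ESRP1, an epithelial splicing regulator, was read at 1.44 to 2.13 CPM in 1, 5 and 9 and at 0 to 1.31 CPM elsewhere, near the floor.

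**Figure D4:**
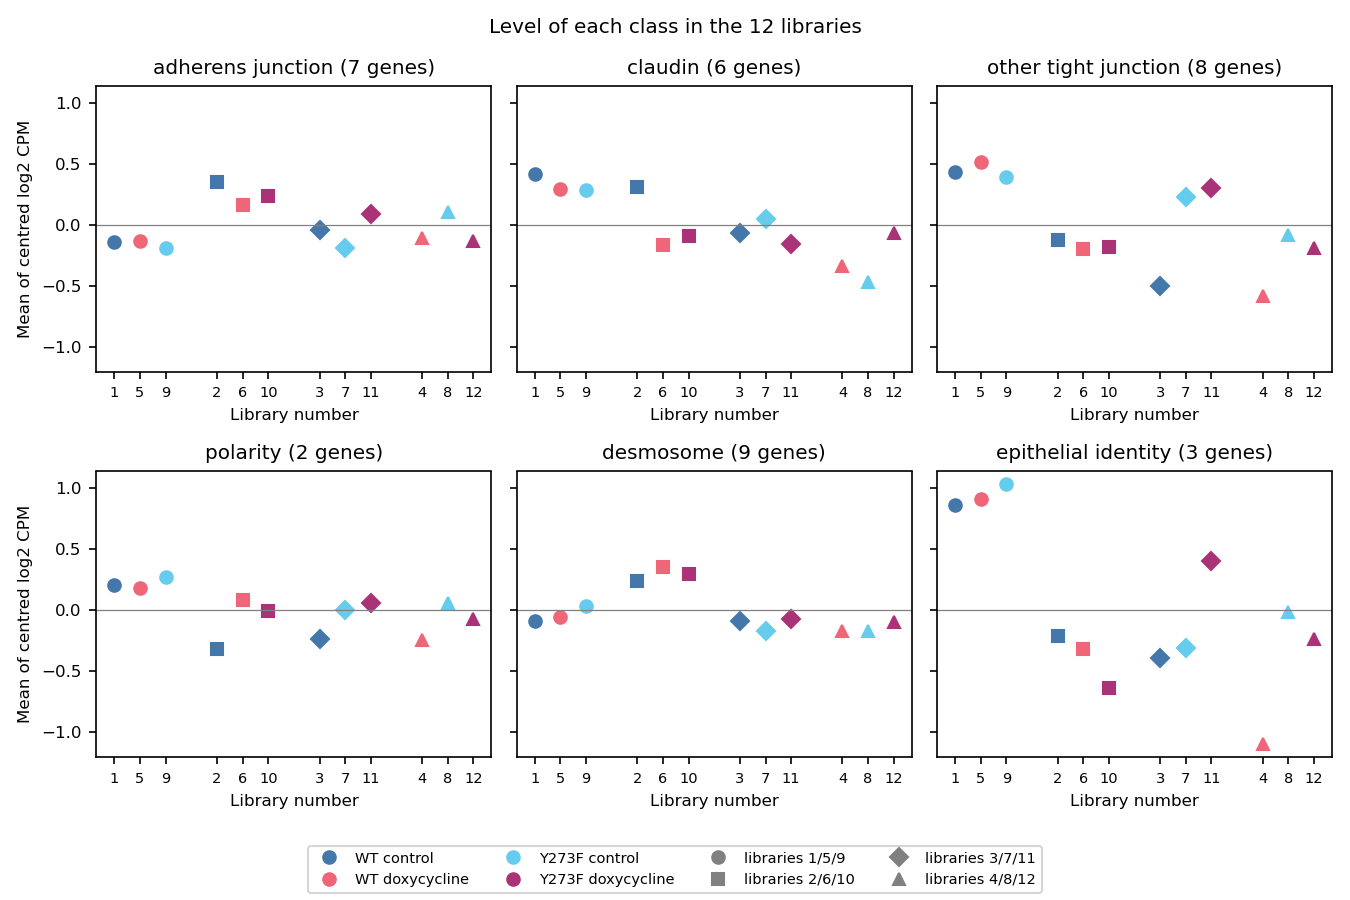
Mean over the tested members of a class of centred log2 CPM, each gene's average being set to 0 (vertical axis), for each library (horizontal axis, ordered by number set), with colour for the label and shape for the set. Desmosome genes are highest in libraries 2, 6 and 10, at 0.238 to 0.352, and identity genes in 1, 5 and 9, at 0.86 to 1.03 (0.827 to 0.911 without ESRP1). The adherens junction values of 0.16 to 0.351 in 2, 6 and 10 rest on NECTIN4, and without it the mean of the other 6 genes is -0.056 to -0.014 there and at most 0.071 elsewhere.

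Counted over the list, libraries 2, 6 and 10 lay wholly above the other 9 for 12 of 35 members (18.5% of all genes did so) and wholly below for 3 (15.6% of all genes). Without NECTIN4, which passed the filter only through these libraries, the first count was 11 of 34. The 12 were NECTIN4, CLDN1, F11R, DSG2, DSC2, CTNNA1, DSC3, CGN, CTNNB1, TJP1, CLDN4 and PKP2, and the 3 were TJP3, CDH1 and NECTIN1. Just inside the members above was PKP2, with a gap of 0.004 on the log2 scale. Nearest outside on that side was CLDN12, which overlapped by 0.13. On the lower side PKP3 was nearest, with an overlap of 0.119. The median size of the difference, taken without sign, was 0.583 over the members and 0.375 over all genes.

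Libraries 1, 5 and 9 lay wholly above the other 9 for 8 of 35 members (2.95% of all genes) and wholly below for 0 of 35 (2.41% of all genes). These were EPCAM, LSR, CLDN2, PARD3, MARVELD2, ESRP1, MARVELD3 and ELF3. Without ESRP1, which passed the filter only through these libraries, the count was 7 of 34. They make up 22.9% of the tested members. Of the 8, 4 belong to the tight junction classes and the rest to polarity and identity, and no adherens junction or desmosome gene was among them. ELF3 was just inside, with a gap of 0.042, and JUP just outside, with an overlap of 0.018.

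Set against each other, libraries 2, 6 and 10 lay above 1, 5 and 9 for 13 of 35 members (27.2% of all genes) and below for 15 (27% of all genes). Libraries 2, 6 and 10 lay above 4, 8 and 12 for 15 members (24.7% of all genes) and below for 4 (22.3% of all genes). Libraries 3, 7 and 11 lay above 1, 5 and 9 for 2 members (9.42% of all genes), CDH1 and CTNNB1, and below for 13 (9.89% of all genes). Libraries 4, 8 and 12, those with the highest DYRK1B reads, lay above 3, 7 and 11 for 2 members (8.79% of all genes), TJP1 and DSG2. They lay below for 4 members (8.53% of all genes), JUP, PERP, EPCAM and ELF3, shares near those of all genes. The gaps for TJP1 and DSG2 were 0.035 and 0.02 on the log2 scale, and with library totals as the only scaling neither remained.

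By junction type, libraries 2, 6 and 10 lay above the other 9 for 4 of the 9 desmosome genes, 3 of the 7 adherens junction genes, 3 of the 8 other tight junction genes, 2 of the 6 claudins and none of the polarity or identity genes, beside 18.5% of all genes. They lay below for 2 adherens junction genes and 1 other tight junction gene, beside 15.6% of all genes. Without NECTIN4, which had to be high in these libraries to be tested, the adherens junction count above was 2 of 6. Against libraries 1, 5 and 9, directions were mixed within most classes, beside 27.2% of all genes above and 27% below. Libraries 2, 6 and 10 were above for 5 of the 9 desmosome genes and below for 2, JUP and PKP3. Adherens junction genes gave 3 above (2 without NECTIN4) and 2 below. Claudins gave 2 above and 3 below, and other tight junction genes 3 above and 4 below. Of the 2 polarity genes 1 lay below, as did all 3 identity genes. Among the identity genes ESRP1 was tested only through libraries 1, 5 and 9, and the others are EPCAM and ELF3.

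The pairs of members with the most alike profiles over the 12 libraries were CTNNB1 with CLDN1 (Pearson r of log2 CPM 0.955), CTNNA1 with DSG2 (0.952), F11R with DSC2 (0.949), MARVELD2 with LSR (0.941) and F11R with DSG2 (0.929). These are descriptions over libraries that differ in depth and in number set. Over the 9 libraries without 2, 6 and 10 the coefficients were 0.545, 0.437, 0.733, 0.938 and 0.39, lower than over all 12 for each pair, and least so for MARVELD2 with LSR. CDH1 and F11R were the most opposite pair, at -0.963 over 12 libraries and -0.835 over these 9.

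Other genes of the same structures, from a list of 65 junction and polarity genes outside the members, gave 39 tested genes, of which edgeR called 0 in each comparison of the labels. The median log2 fold change over these 39 was 0.015 in the WT line and 0.079 in the Y273F line. By number, 16 of the 39 (41%) lay above and 2 (5.13%) below in libraries 2, 6 and 10, beside 18.5% and 15.6% of all genes. Among those above were CDH2, or N-cadherin, at 194 to 209 CPM against 64.7 to 90.8 CPM, and VCL, or vinculin, the actin linker of strained junctions, at 486 to 561 against 133 to 219 CPM. Those below were LLGL2, a basolateral polarity gene, at 38.02 to 41.9 against 49.7 to 73.5 CPM, and PARD6A, a PAR6 paralogue, at 0.829 to 1.76 against 1.82 to 5.598 CPM. These genes were named after their values were seen.

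Markers were read beside these levels. Simple epithelial keratins were read in every library. KRT8 was at 1776 to 2449 CPM in libraries 2, 6 and 10 and 667 to 1304 CPM elsewhere. KRT18 was at 6125 to 8473 CPM there and 2262 to 3362 CPM elsewhere. Of the 6 tested genes of the A549 marker list, 4 lay above (18.5% of all genes) and 1, AGR2, below (15.6%). The lung lineage markers NKX2-1, SFTPB, SFTPC and NAPSA stayed at 0 or near the floor in every library. Endothelial markers summed to at most 1.06 CPM and immune markers to 6.21 to 12.2 CPM. Most of the immune sum was CD14, at 4.91 to 10.8 CPM, with LYZ at 0 to 3.63 CPM and CD3E at 0. Of 10 fibroblast and smooth muscle markers 3 were tested, and all 3 (COL1A1, LUM and ACTA2) lay above in libraries 2, 6 and 10, beside 18.5% of all genes. LUM passed the filter only through these libraries and had to lie high there, which leaves 2 of 2. The list summed to 183 to 247 CPM there and 29.7 to 55.0 CPM elsewhere, while DES was at 0 throughout, DCN at no more than 0.0443 CPM and COL1A2 at no more than 0.352 CPM. The 9 mesenchymal state genes summed to 2289 to 2687 CPM in libraries 2, 6 and 10 and 1019 to 1437 CPM elsewhere. Of these, 5 of 9 lay above (18.5% of all genes), or 4 of 7 without ZEB2 and SNAI2, which passed the filter only through these libraries. Among the 5 were VIM at 1924 to 2318 against 822 to 1227 CPM and SNAI1 at 4.58 to 10.6 against 0.924 to 3.85 CPM. Another 2, TWIST1 and TWIST2, lay below (15.6% of all genes). The part of these genes in the low CDH1 and the high desmosomal cadherins of the same libraries was not tested. In bulk RNA, fewer cells of a kind and less RNA per cell cannot be told apart.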

How the data were processed

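RNA of 12 A549 cultures was made into QuantSeq FWD V2 libraries and, per the submitters' processing notes, mapped with STAR to GRCh38.p14; no version or annotation release is named in the sources used here. The deposited gene tables hold raw read counts without strand and for each strand, and a merged table. The transcript-strand counts were used (60664 gene identifiers). All 38 member rows equal those of the merged table. Reads assigned to no gene, 35.5% to 43.2% of a library, were left out.

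Counts were filtered with filterByExpr (minimum count 10), scaled with TMM and tested by the quasi-likelihood functions glmQLFit and glmQLFTest of edgeR 4.0.16 under R 4.3.3, in 1 model of all 12 libraries with a mean for each labelled group, with Benjamini-Hochberg adjustment over all 13838 genes and a threshold of 0.05. Levels are TMM-scaled CPM, and log2 CPM used a prior count of 2. The members and lists were chosen with earlier results of these data known. Values in every library are given for CDH1, EPCAM, the 2 members with the highest mean CPM in each class, members past the threshold (none) and up to 6 with the widest gap between libraries 2, 6 and 10 and the other 9 in each direction. Alternatives were DESeq2 1.42.0 size factors and Wald test, upper-quartile factors, library totals alone, a prior count of 0.5, other filters, limma-voom (limma 3.58.1), the replicate number as a block, only the groups compared, counts of both strands, the merged table and leaving out each library. Leaving out libraries 2, 6 and 10 together was added after the data were seen. The procedure was tested on simulated data in which libraries shared a mean per gene, apart from genes changed in a labelled group. That simulation held no differences between the number sets, so it does not show how the tests behave where such differences exist. Promoter windows are from RefSeq, and exon overlaps from GENCODE 29.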

Additional observations from a re-analysis of the deposited data

How the results depend on the processing

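Across the alternatives 0 members were called in each of the 4 comparisons, and the count of genes called remained 0 except when 1 library was left out. With 1 library left out it ranged from 0 to 1 for doxycycline in the Y273F line (1 without Y273F control 2, doxycycline 2 or doxycycline 3), from 0 to 1 for the difference of the effects (1 without Y273F doxycycline 2 or 3) and from 0 to 1 between the lines (1 without Y273F control 2). None of these was a member. Without libraries 2, 6 and 10 together, 34 members were tested and 0 genes were called. Over 1623 values of 18 named members under 23 settings 0 changed call, and 145 (8.93%) had the other sign with neither value past the threshold. With library totals alone, 0 members in place of 2 lay above 3, 7 and 11 in libraries 4, 8 and 12. With upper-quartile factors, 1 member in place of 2 lay above 1, 5 and 9 in libraries 3, 7 and 11, and PKP2 no longer lay above in 2, 6 and 10. The fit of only the groups compared was not run for the difference, which needs all groups. The lowest depth, 2815673 counts, limits members of a few CPM.

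The replicate numbers of the titles did not pair the libraries, since same-numbered libraries correlated at -0.636 to 0.24 in their deviations from the group means. A fit with the replicate block called 0 genes and 0 members in each comparison, with 81 genes at an unadjusted p under 0.05 for doxycycline in the WT line, 116 in the Y273F line, 85 for the difference and 295 between the lines.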

Other observations

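Transcription factors of epithelial lineages outside the members, named after their values were seen, also differed by library number. KLF5, a factor of proliferating epithelia, was read at 132, 129 and 131 CPM in libraries 1, 5 and 9, 44.8, 45.3 and 45.4 CPM in 2, 6 and 10, 73.7, 103 and 92.9 CPM in 3, 7 and 11, and 50.02, 66.8 and 71.3 CPM in 4, 8 and 12. The pioneer factor gene FOXA2 was read at 106, 115 and 111 CPM in 2, 6 and 10 and at 194 to 234 CPM in the other 9. EHF, an ETS relative of ELF3, was read at 13.4 to 19.3 CPM in 1, 5 and 9 and at 2.11 to 5.89 CPM elsewhere. AGR2, a secretory pathway disulphide isomerase, was read at 1737, 1742 and 1890.0 CPM in 1, 5 and 9, 292, 394 and 334 CPM in 2, 6 and 10, 758, 944 and 1073 CPM in 3, 7 and 11, and 642, 837 and 830.5 CPM in 4, 8 and 12. Of the 24 tested genes of the epithelial identity list outside the members, 8 (33.3%) lay above and 4 (16.7%) below in libraries 2, 6 and 10, beside 18.5% and 15.6% of all genes, and edgeR called 0 in each comparison of the labels.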
